A study of Mus musculus with 12 samples.

Results

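Wnt ligands are secreted signalling proteins, and 10 of their genes were followed through tumours of 3 mouse lung adenocarcinoma lines: Wnt2, Wnt4, Wnt5a, Wnt5b, Wnt6, Wnt7a, Wnt7b, Wnt9a, Wnt10a and Wnt11. A gene was included by its name, through every probe set annotated to that symbol alone. The 10 genes have 20 probe sets, are among 18193 genes tested, and 7 of them have several probe sets. Where a gene has several probe sets, its values below come from the brightest on average, and the others are given beside it.

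The 3 lines carry the alleles p53R172H∆g/+ and K-rasLA1/+, so no group lacks either mutation. Tumours of 344SQ (highly metastatic in the labels), 393LN (intermediately metastatic) and 393P (non-metastatic) were each measured on 4 arrays. The 344SQ line came from a subcutaneous site in mouse 344, the 393LN line from a mediastinal lymph node of mouse 393 and the 393P line from a primary lung tumour of that same mouse, and all were kept in serum-containing culture as mass populations. The tumours were grown in syngeneic mice, dissected and frozen, so host stroma contributes RNA. Each line stands for 1 culture, so metastatic ability, line and, for 344SQ, mouse of origin cannot be told apart. The labels do not say whether the 4 samples of a line are separate animals, and p-values measure only the spread between these samples.

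Values are on the scale log2(intensity + 16), on which the lowest possible value, the floor, is 4.09. A gene is said to rise, fall or pass at a two-sided limma adjusted p under 0.05 over all genes tested. Array medians lay between 7.34 and 7.43 on that scale. The tumours expressed the epithelial genes Cdh1, Krt8 and Krt18 on every array, at 13.18 or above. Another epithelial gene, Epcam, was at 8.30 to 10.27 in 344SQ and 13.10 to 13.56 in the 393 lines, by its brightest probe set. Nkx2-1, which defines the lung epithelial lineage, was at the floor on 6 of 12 arrays and reached at most 4.57, so this lineage marker was at or near the floor in every line. The surfactant gene Sftpb was at 11.43 to 13.42 in 344SQ, 7.38 to 7.65 in 393LN and 7.45 to 7.74 in 393P. Of 5 lung epithelial markers only Sftpb passed in 344SQ, where 10.5% of all genes passed against 393P and 10.9% against 393LN. In 344SQ, 393LN and 393P, Sftpc averaged 7.13, 6.73 and 6.82, and Sftpa1 6.81, 7.35 and 7.36. Scgb1a1 was near the floor, at means of 4.50, 4.54 and 4.80. One array differed in a control for degraded RNA: 393P replicate 1 had 1.47 times as much actin signal at the 3′ as at the 5′ end, and the other arrays 1.04 to 1.19 times.

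On GRCm38.p6 the 10 genes lie on 7 chromosomes. Wnt2, Wnt5b and Wnt7a are on chromosome 6, and Wnt6 and Wnt10a lie close together on chromosome 1, at chr1:74754342-74785322 and chr1:74792019-74804176. The rest lie singly on chromosomes 4 (Wnt4), 7 (Wnt11), 11 (Wnt9a), 14 (Wnt5a) and 15 (Wnt7b).

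Wnt proteins are cysteine-rich glycoproteins that carry a lipid added by the enzyme Porcn and are escorted out of the cell by Wls. They bind Frizzled receptors, and with Lrp5 or Lrp6 as co-receptor many of them stabilise β-catenin, which then switches on genes with TCF/LEF factors. Others, Wnt5a and Wnt11 among them, act largely without β-catenin on cell polarity and movement. In the developing lung, Wnt7b is made by the epithelium, Wnt2 by the mesenchyme, and Wnt5a acts in branching of the distal airways.

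RefSeq promoter sequences (build GRCm38.p6, from 250 bases before to 50 after a gene's start) were available for 7 of the 10 genes. The window of Wnt7a, which fell in both metastatic lines against 393P by its brightest probe set only, is shown with its motifs. A window of Wnt11, whose 3 line means lay within 0.17 log2 units, is shown beside it. Both are printed 5′ to 3′ along the gene's own strand, Wnt7a from chr6:91411304-91411603 (minus strand) and Wnt11 from chr7:98834862-98835161 (plus strand). Capitals mark the core of the TCF/LEF motif (CTTTG, or CAAAG on the other strand) and GC boxes (GGGCGG, or CCGCCC on the other strand), with overlapping matches counted singly.
Wnt7a: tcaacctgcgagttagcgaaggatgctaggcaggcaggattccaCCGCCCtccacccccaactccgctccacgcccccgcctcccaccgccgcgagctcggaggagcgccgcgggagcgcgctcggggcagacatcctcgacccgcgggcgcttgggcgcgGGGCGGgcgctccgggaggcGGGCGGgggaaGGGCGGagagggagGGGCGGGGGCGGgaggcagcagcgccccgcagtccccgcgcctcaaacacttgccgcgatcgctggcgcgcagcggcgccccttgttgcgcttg
Wnt11: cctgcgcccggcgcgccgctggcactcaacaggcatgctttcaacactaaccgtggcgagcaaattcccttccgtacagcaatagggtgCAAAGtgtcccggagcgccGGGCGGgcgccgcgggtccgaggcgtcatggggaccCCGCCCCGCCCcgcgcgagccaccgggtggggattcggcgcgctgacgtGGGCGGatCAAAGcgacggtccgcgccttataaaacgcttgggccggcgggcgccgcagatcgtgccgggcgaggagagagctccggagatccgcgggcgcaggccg

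The Wnt7a window holds 6 GC boxes and 0 TCF/LEF cores, with 42 CpG dinucleotides and a G+C content of 76.0%. The printed Wnt11 window holds 4 GC boxes and 2 TCF/LEF cores, with 45 CpG dinucleotides and a G+C content of 71.3%. Another Wnt11 window, at chr7:98838595-98838894, holds 1 GC box and 0 TCF/LEF cores, with 23 CpG dinucleotides and 59.3% G+C. The windows of Wnt2, Wnt4, Wnt6 and Wnt9a, none of which passed, also hold 0 TCF/LEF cores, so this count does not set Wnt7a apart. Over 32851 RefSeq promoters of the same length, 35.7% hold a GC box and 53.9% a TCF/LEF core on either strand, and the medians are 7 CpG dinucleotides and 52.7% G+C. Both printed windows are CpG-rich beside the typical mouse promoter, and a core as short as the TCF/LEF one is found in the majority of mouse promoters. The absence of these letters from the Wnt7a window says nothing of regulation from elsewhere.

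Wnt7b had the smallest adjusted p of the Wnt ligand genes, and it was lowest in 344SQ tumours. It encodes an epithelial ligand that signals through β-catenin in the developing lung, and lies at chr15:85535437-85581821 (GRCm38.p6). In 344SQ tumours Wnt7b was at 9.74, 10.03, 10.05 and 10.51, in 393LN tumours at 11.21, 11.09, 10.97 and 11.46, and in 393P tumours at 11.40, 12.05, 11.93 and 11.74. All 4 values of 344SQ lay below all 8 of the other lines, while 393LN and 393P overlapped. Of all genes tested, 16.7% did not overlap in either direction between 344SQ and 393P, and 17.4% between 344SQ and 393LN.

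Wnt7b averaged 10.08 ± 0.32 in 344SQ and 11.78 ± 0.28 in 393P (SD, n = 4 each), a fall of 3.24-fold (log2 change -1.69, SE 0.18, limma adjusted p = 0.000115). Against 393LN, at 11.18 ± 0.21 (n = 4), the fall in 344SQ was 2.14-fold (log2 change -1.10, SE 0.18, limma adjusted p = 0.00279). The difference of 393LN from 393P was -0.59 (95% interval -0.99 to -0.20) and did not pass (limma adjusted p = 0.116). That last comparison passed at an adjusted p of 0.0273 when noisy arrays were given less weight in limma.

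The second probe set of Wnt7b gave a lower signal. It read 8.68, 8.59, 9.22 and 9.90 in 344SQ, 10.29, 9.69, 10.36 and 10.74 in 393LN, and 8.88, 11.50, 11.25 and 11.03 in 393P. Within 393P, replicate 1 stood far below the other three, inside the range of 344SQ. The gap between both Wnt7b probe sets was 2.52 on that array, against 0.55 to 1.44 on the other arrays, and it is also the array with the high actin ratio. Its part in the Wnt7b values was not tested.

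With all arrays, this second probe set had a change of -1.57 in 344SQ against 393P and did not pass (limma adjusted p = 0.0872, over all probe sets). Without 393P replicate 1 the change was -2.16 (adjusted p = 0.0027). Against 393LN it was -1.17, with an adjusted p of 0.195 on all arrays and 0.0319 (SE 0.30) without 393P replicate 1. Other arrays left out moved this probe set away from passing. Without 344SQ replicate 1 or 2 the change against 393P was -1.43 and -1.40 (limma adjusted p = 0.188 and 0.202). Without 344SQ replicate 1 the change against 393LN was -1.03 (limma adjusted p = 0.349).

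Wnt7a, a close relative of Wnt7b that is best known from limb, uterus and nervous system development, had another pattern. The gene lies at chr6:91363981-91411353, on the minus strand. Its values were 8.93, 9.17, 8.92 and 8.85 in 344SQ, 9.03, 9.42, 8.75 and 8.27 in 393LN, and 10.13, 10.13, 10.03 and 10.05 in 393P. Both metastatic lines lay wholly below 393P and overlapped with each other. Between 393LN and 393P, 10.3% of all genes tested did not overlap.

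Wnt7a averaged 8.97 ± 0.14 in 344SQ and 10.09 ± 0.05 in 393P (SD, n = 4 each), a fall of 2.17-fold (log2 change -1.12, SE 0.19, limma adjusted p = 0.00329). The fall in 393LN, at 8.87 ± 0.49, was 2.33-fold against 393P (log2 change -1.22, SE 0.19, limma adjusted p = 0.0111). Between 344SQ and 393LN the change was 0.10 (95% interval -0.32 to 0.52, adjusted p = 0.802).

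The fall of Wnt7a rests on 1 of its 3 probe sets. The other probe sets had changes of 0.09 and 0.27 in 344SQ against 393P, and -0.07 and 0.08 in 393LN against 393P, none of which passed. One of them was bright enough to measure a change, at 8.35 to 8.50 in 344SQ, 8.11 to 8.41 in 393LN and 8.13 to 8.50 in 393P. With the mean of all 3 probe sets neither fall of Wnt7a passed (log2 changes -0.25 and -0.40, adjusted p = 0.173 and 0.0727).

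**Figure D1:**
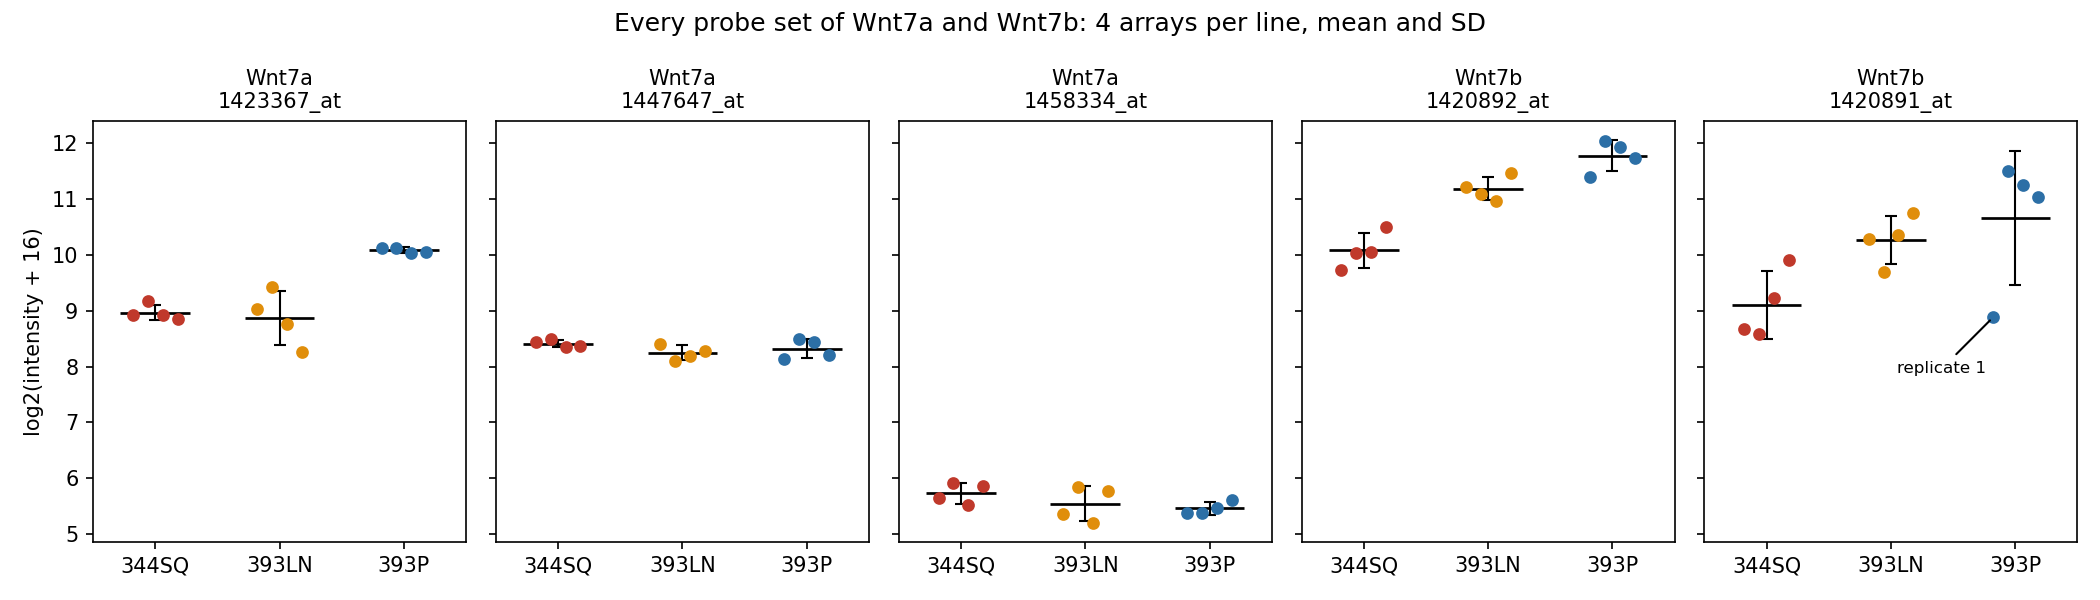
Level, as log2(intensity + 16), of every probe set of Wnt7a and Wnt7b by line; points are the 4 arrays of a line, and bars show the mean and SD. In both Wnt7b panels 344SQ has the lowest mean, and in the right panel 393P replicate 1 sits at 8.88, below the other 393P arrays at 11.03 to 11.50; among the Wnt7a panels only the left one separates 393P from the other lines.

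By their brightest probe sets, Wnt7a and Wnt7b differed in which step between the lines passed. On all arrays, no other probe set of either gene passed in any comparison. For Wnt7b the means ran from 344SQ over 393LN to 393P, and only the step between 344SQ and 393LN passed. For Wnt7a 393LN and 344SQ shared the low end and the step up to 393P passed.

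Of the 10 ligand genes, 0 rose and 2 fell in 344SQ against 393P, where 10.5% of all genes tested changed, with 4.86% higher and 5.62% lower. In 344SQ against 393LN 0 rose and 1 fell, where 10.9% of all genes changed, with 3.99% higher and 6.92% lower. In 393LN against 393P 0 rose and 1 fell, where 2.45% of all genes changed, with 1.75% higher and 0.698% lower. At an unadjusted limma p under 0.05 the ligand genes past it numbered 3, 1 and 2 in these comparisons, where 23.6%, 25.7% and 15.7% of all genes tested were past it. The median change of the 10 genes was -0.16, -0.23 and 0.02, and that of all genes -0.00, -0.02 and 0.01. Each pair of comparisons shares the arrays of 1 line. Tested singly among all probe sets, of which 7.62%, 7.42% and 1.81% passed in the same order of comparisons, no second or further probe set of any ligand gene passed.

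Wnt5a was the only ligand gene with a higher mean in 344SQ by about 1 log2 unit. It is the best known ligand of the β-catenin-independent branch and is made by mesenchymal cells in the lung. Its values were 8.21, 9.41, 9.35 and 8.45 in 344SQ, 8.50, 7.96, 8.24 and 8.76 in 393LN, and 7.71, 8.13, 8.30 and 7.21 in 393P. The lines overlapped, and 344SQ itself was split between replicates 2 and 3, which were high, and replicates 1 and 4, which were near the 393 lines.

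The change of Wnt5a in 344SQ against 393P was 1.02 (95% interval 0.34 to 1.69) and did not pass (limma adjusted p = 0.0586). The call turned on the settings: it passed with quantile normalization (adjusted p = 0.0433), with arrays centred on their medians (0.0458), without the dimmest 25% of genes (0.0415), with array weights (0.0426) and without 344SQ replicate 1 (1.23, adjusted p = 0.0327). Only these 5 passed among 12 single arrays left out and 10 other settings. Over all of them the change was 0.67 to 1.23 and the highest limma adjusted p 0.16. Against 393LN the change was 0.49 (-0.19 to 1.17, adjusted p = 0.362), and 393LN against 393P gave 0.53 (-0.15 to 1.21, adjusted p = 0.464).

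Wnt5a has 3 further probe sets, with changes of 0.95, 0.68 and 0.03 in 344SQ against 393P (adjusted p = 0.173, 0.164 and 0.945). The first of these repeated the split within 344SQ, at 7.10, 8.64, 8.63 and 7.41. The others did not, at 6.51, 7.27, 7.23 and 7.09, and at 7.74, 7.80, 7.48 and 7.13. The mean level of 10 fibroblast marker genes was 12.02, 12.11, 12.18 and 11.91 in 344SQ, 11.61, 11.54, 11.38 and 11.92 in 393LN, and 11.68, 11.86, 11.76 and 11.29 in 393P. Replicates 2 and 3 of 344SQ were the highest of all 12 arrays, and 393P replicate 4 the lowest, in both Wnt5a and this marker mean. In 344SQ, replicates 1 and 4 had Wnt5a values of 8.21 and 8.45, near the 393 lines, but marker means of 12.02 and 11.91. The highest marker mean in the 393 lines was 11.92.

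None of the 10 fibroblast markers passed in any comparison by limma, and none was at the floor on any array. At an unadjusted p under 0.05 they numbered 5, 5 and 0 of 10, beside 23.6%, 25.7% and 15.7% of all genes. The median change of the list was 0.38 in 344SQ against 393P and 0.48 against 393LN. The part of fibroblasts in the Wnt5a values was not tested. In pieces of whole tumour, fewer cells of a type and less RNA per cell cannot be told apart, which holds for every ligand gene here.

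**Figure D2:**
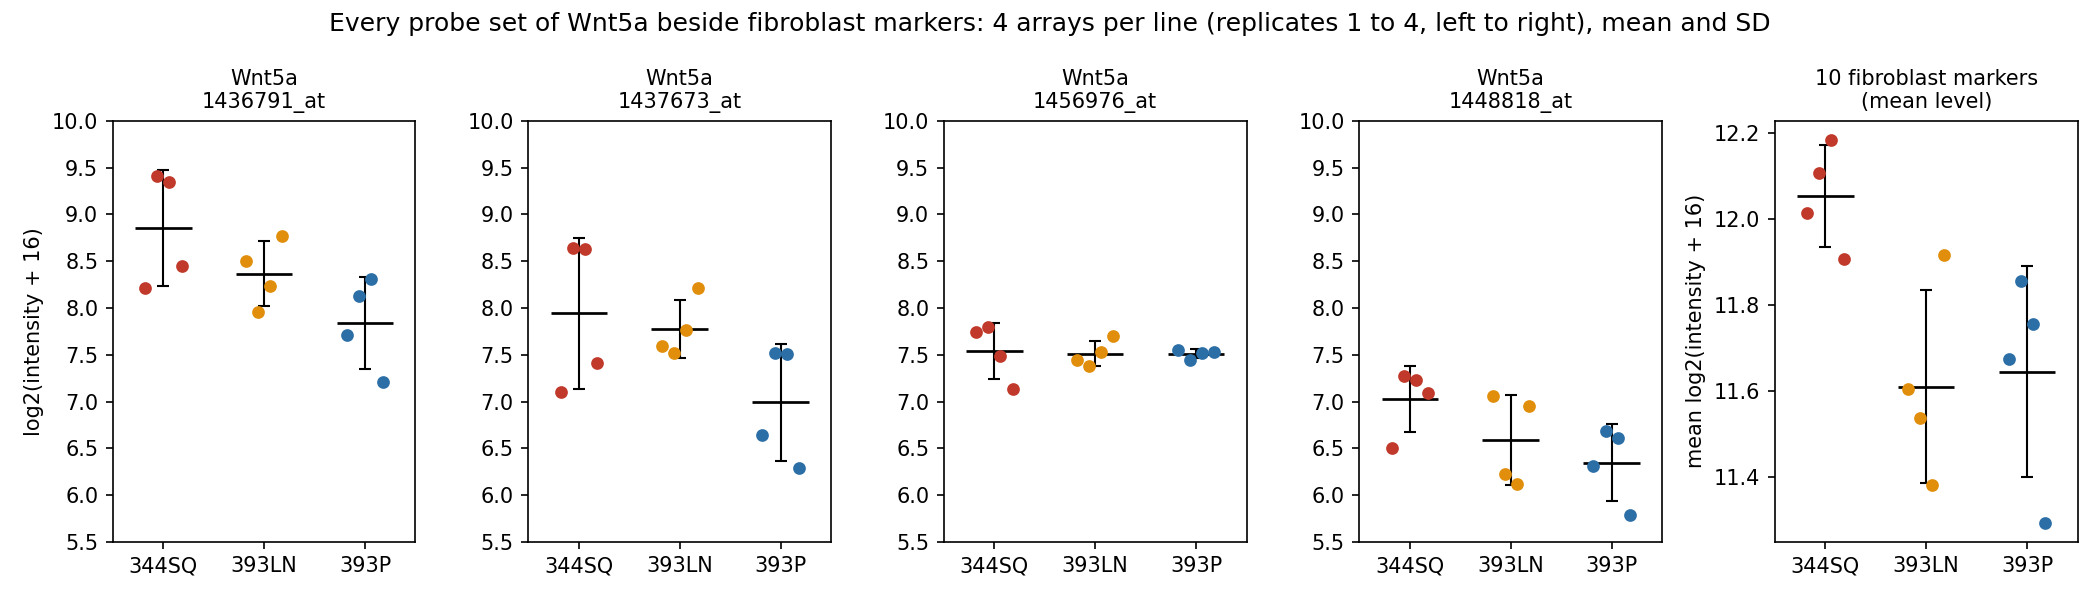
Level, as log2(intensity + 16), of the 4 probe sets of Wnt5a and, at the right on its own axis, the mean level of 10 fibroblast marker genes; points are the 4 arrays of a line in replicate order, bars the mean and SD. Replicates 2 and 3 of 344SQ are the high points in both left panels and in the marker panel, and 393P replicate 4 is the low point. In both left panels replicates 1 and 4 of 344SQ lie among the 393 arrays. In the marker panel they are at 12.02 and 11.91, beside at most 11.92 in the 393 lines.

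Wnt11, which like Wnt5a acts mostly on cell movement and polarity, differed little between the lines. It was at 10.32, 10.49, 9.95 and 10.01 in 344SQ, 9.93, 10.16, 9.93 and 10.22 in 393LN, and 9.65, 10.07, 10.21 and 10.14 in 393P. All 3 lines overlapped, and the change in 344SQ was 0.17 against 393P (95% interval -0.16 to 0.51) and 0.13 against 393LN (-0.21 to 0.47).

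Wnt4, known for its part in kidney and female reproductive tract development, was also near level. Its values were 8.41, 8.68, 8.55 and 8.53 in 344SQ, 8.87, 8.82, 8.51 and 8.66 in 393LN, and 8.47, 8.80, 8.56 and 8.68 in 393P. The change in 344SQ was -0.08 against 393P (95% interval -0.33 to 0.16) and -0.17 against 393LN (-0.42 to 0.07). These were the narrowest intervals among the 10 genes. The second, dimmer probe set of Wnt4 was at 6.98 to 7.65 in 344SQ, 7.50 to 7.71 in 393LN and 6.98 to 7.55 in 393P, with changes of 0.01 against 393P (-0.36 to 0.37) and -0.27 against 393LN (-0.63 to 0.09).

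Wnt10a, a β-catenin ligand of skin appendages and teeth, varied more within the lines than between them. It read 9.05, 9.29, 8.48 and 7.98 in 344SQ, 8.43, 9.16, 9.41 and 9.15 in 393LN, and 9.70, 8.90, 8.82 and 8.98 in 393P. The range of the 3 line means was 0.40, against a pooled SD within lines of 0.48, and the change in 344SQ against 393P was -0.40 with an interval from -1.05 to 0.26. The mean of 6 epidermis markers was 7.47 to 8.70 in 344SQ, 7.72 to 10.32 in 393LN and 7.62 to 9.05 in 393P, and the part of skin in the Wnt10a values was not tested. On the chromosome, nearby Wnt6 had 0.30 in that comparison (-0.14 to 0.74).

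Wnt9a, a ligand of joint and skeletal development, was at 7.33, 7.31, 7.35 and 6.90 in 344SQ, 7.70, 7.05, 7.12 and 8.27 in 393LN, and 7.63, 8.01, 7.51 and 7.13 in 393P. The lines overlapped, with a change of -0.35 in 344SQ against 393P (95% interval -0.92 to 0.22). Its second, dimmer probe set had 0.11 there (-0.32 to 0.54).

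The dimmest ligand signals were those of Wnt2, Wnt5b and Wnt6. Wnt2, the mesenchymal ligand that helps to specify the lung in the embryo, was at 6.35, 5.34, 5.51 and 6.27 in 344SQ, 6.56, 5.63, 6.30 and 6.56 in 393LN, and 5.64, 5.99, 5.89 and 6.34 in 393P. The values of all lines were mixed, and a change between lines would be understated this close to the floor.

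Wnt5b, a relative of Wnt5a, read 5.83, 5.94, 6.48 and 6.35 in 344SQ, 6.83, 6.44, 6.04 and 6.46 in 393LN, and 6.37, 6.44, 6.35 and 6.33 in 393P. Wnt6, an epithelial ligand in the embryo, read 6.55, 6.78, 6.32 and 6.65 in 344SQ, 6.06, 6.02, 6.45 and 6.58 in 393LN, and 6.53, 6.08, 5.78 and 6.69 in 393P. The second, dimmer probe set of Wnt6 was at 5.37 to 5.82 in 344SQ, 4.73 to 6.28 in 393LN and 4.70 to 5.37 in 393P, with a change of 0.60 in 344SQ against 393P (95% interval 0.01 to 1.19) that did not pass (limma adjusted p = 0.231, over all probe sets). That of Wnt5b lay near the floor, at 4.12 to 4.48 in 344SQ, 4.28 to 4.81 in 393LN and 4.09 to 4.55 in 393P, with a change of 0.07 in 344SQ against 393P (-0.27 to 0.40). Neither gene separated the lines, and the values of both come from a probe set of a type (x_at) that can also bind other transcripts. The adjusted p of Wnt2, Wnt5b, Wnt6, Wnt9a, Wnt10a, Wnt11 and Wnt4 was 0.327 or above in every comparison, and that of their other probe sets 0.231 or above.

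**Figure D3:**
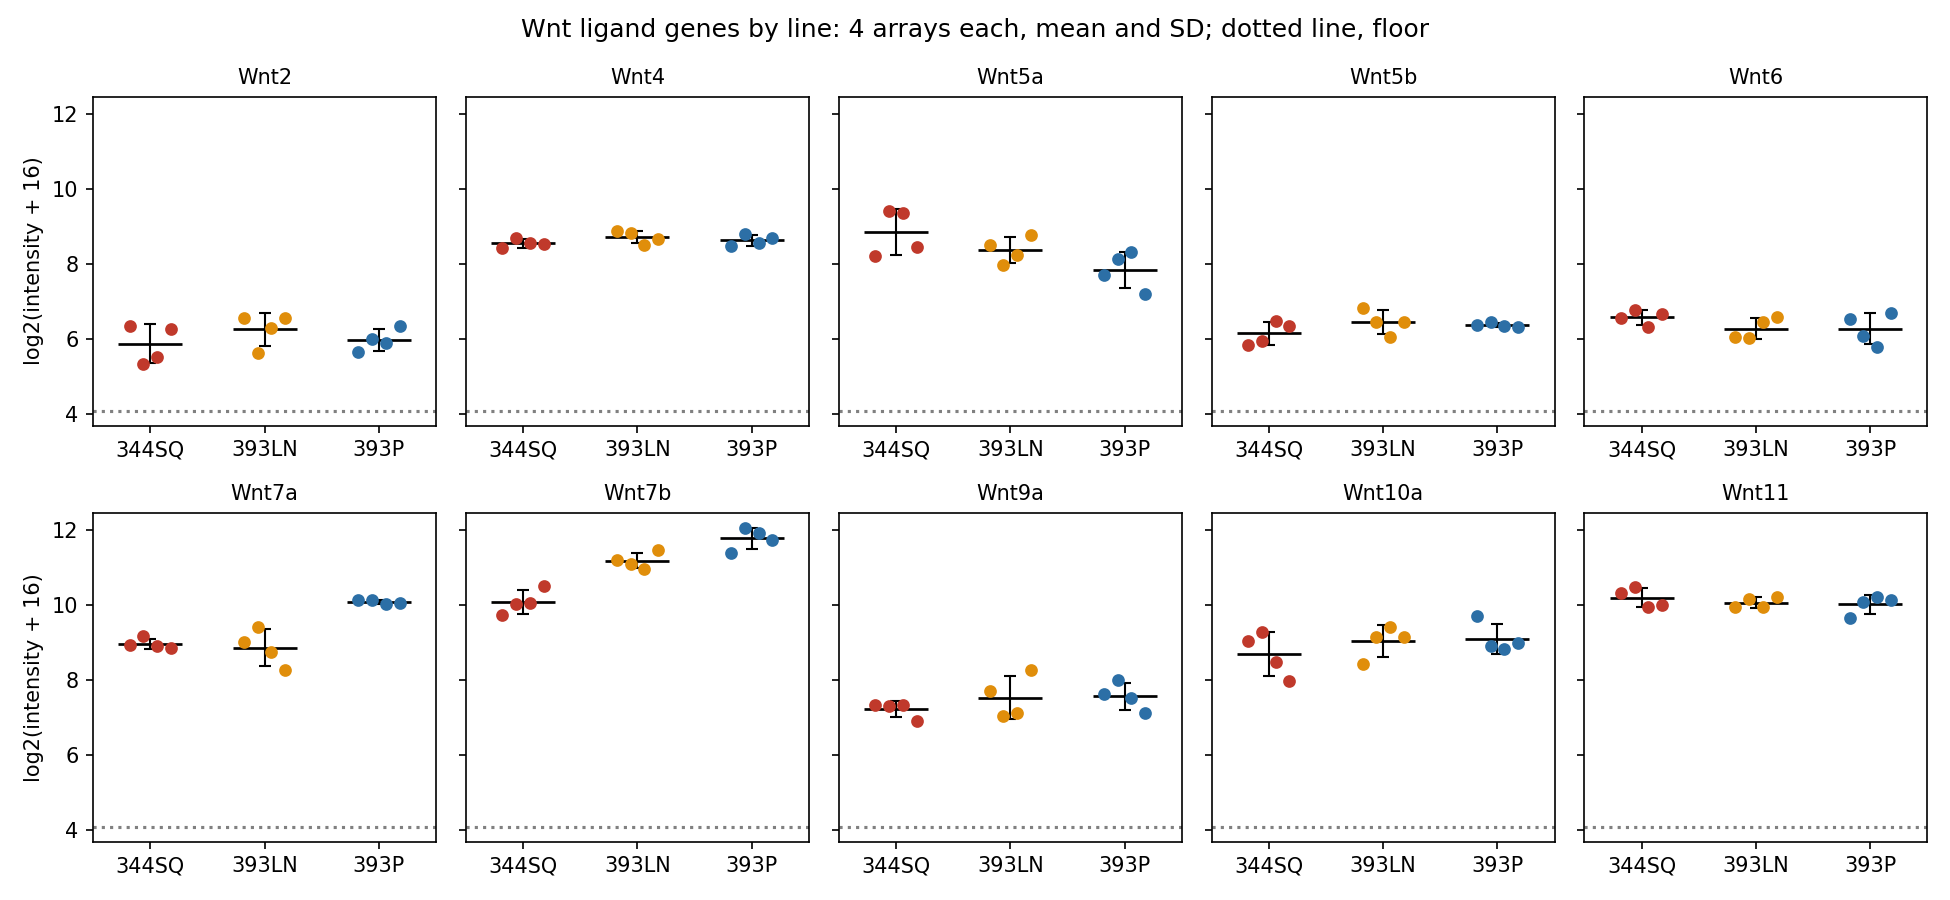
Level of each of the 10 Wnt ligand genes, as log2(intensity + 16), by line; points are the 4 arrays of a line, bars the mean and SD, and the dotted line is the floor at 4.09. Wnt7b is low in 344SQ, Wnt7a is high in 393P, and the other 8 genes overlap between the lines.

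**Figure D4:**
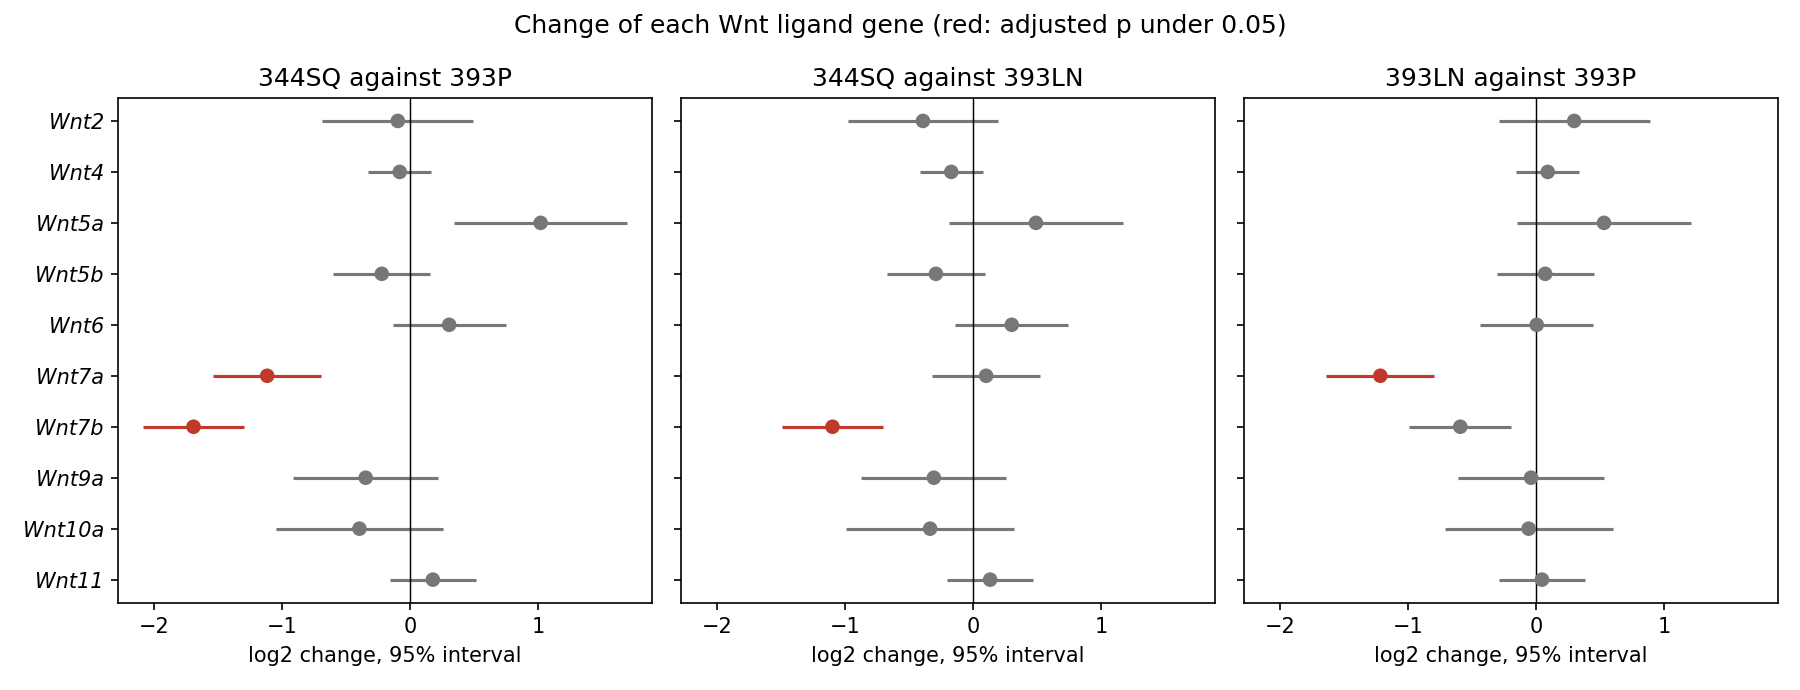
Log2 change and 95% interval of each Wnt ligand gene in the 3 comparisons, with changes past an adjusted p of 0.05 in red. Wnt7a and Wnt7b lie left of 0 in 344SQ against 393P (-1.12 and -1.69), Wnt7b in 344SQ against 393LN (-1.10) and Wnt7a in 393LN against 393P (-1.22).

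Genes whose levels over the 12 arrays were most like those of a called ligand were sought among 11026 genes. The closest to Wnt7b were Cda, an enzyme of pyrimidine salvage (r = 0.968), Kcmf1, a ubiquitin ligase (0.964), Prss22, an airway serine protease (0.961) and Ramp1, a subunit of the receptor for the peptide CGRP (0.947). After the line means were taken out, their r with Wnt7b was 0.705, 0.761, 0.763 and 0.411, so part of the likeness is among arrays of 1 line and part is the difference between lines. The closest to Wnt7a were Mboat1, a lysophospholipid acyltransferase (0.918), Tatdn2 (0.907), Ociad1 (0.901) and Slc30a7, a zinc transporter (0.897). After the line means were taken out, r with Wnt7a was 0.596, 0.346, 0.280 and 0.744, so for Tatdn2 and Ociad1 the likeness is mostly the difference between lines. These values describe 12 arrays of 3 lines and carry no test.

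Of 8 genes that let cells release Wnt proteins, 2 rose and 1 fell in 344SQ against 393P, 2 rose in 344SQ against 393LN and 1 rose in 393LN against 393P. The other 5, 6 and 7 genes did not pass, and of all genes tested 10.5%, 10.9% and 2.45% passed in these comparisons. Wls, the carrier of lipid-modified Wnt proteins, was at 12.16, 11.88, 11.78 and 11.91 in 344SQ, 9.85, 9.60, 10.88 and 11.55 in 393LN, and 9.06, 10.55, 10.51 and 9.83 in 393P. All 4 values of 344SQ lay above the other 8, and 393LN spread widely.

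Wls rose 3.85-fold in 344SQ against 393P (log2 change 1.94, SE 0.41, limma adjusted p = 0.0107), and leaving out any single array kept this call. Of its 3 other probe sets, 2 also rose (1.86 and 1.26, adjusted p = 0.0381 and 0.0498) and the dimmest had -0.20. Against 393LN the rise was 1.46 (adjusted p = 0.042), a call that leaving out any one of 9 arrays ended, with changes of 1.17 to 1.82. The fall of Wnt7b and the rise of Wls are both differences of the 344SQ line, and a link between them was not tested.

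Porcn, which adds the lipid, was at 10.98, 11.19, 11.07 and 11.13 in 344SQ, 9.06, 9.98, 10.57 and 10.43 in 393LN, and 10.03, 10.26, 10.54 and 11.12 in 393P. It rose by 1.08 in 344SQ against 393LN (adjusted p = 0.0389, ended by leaving out any one of 8 arrays, 0.77 to 1.27), and had 0.61 against 393P (adjusted p = 0.254). The retromer subunits, which return Wls to the Golgi for reuse, did not move together. Vps26a rose by 0.45 in 344SQ and by 0.61 in 393LN against 393P, while Vps29 fell by 0.45 in 344SQ against 393P. Of the 12 arrays, 7, 5 and 8 ended these 3 calls when left out singly.

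Among 18 receptor and co-receptor genes, 0 rose and 2 fell in 344SQ against 393P, and 2 rose and 2 fell against 393LN. Of all genes tested, 10.5% and 10.9% passed in these comparisons. None of the 18 passed in 393LN against 393P (1 at an unadjusted p under 0.05, beside 15.7% of all genes). Fzd6, a Frizzled receptor tied to tissue polarity, was at 8.74, 9.64, 9.77 and 9.83 in 344SQ, 10.79, 10.33, 10.21 and 10.54 in 393LN, and 10.56, 10.39, 10.49 and 10.83 in 393P. It fell by 1.07 in 344SQ against 393P (adjusted p = 0.00964) and by 0.97 against 393LN (adjusted p = 0.017), with no overlap. Its 2 dimmer probe sets did not pass (-0.58 and -0.17 against 393P).

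Adgra2, also called Gpr124, is a co-receptor that works with Reck to let cells sense Wnt7a and Wnt7b, as known from brain vessels. It was at 7.93, 7.99, 8.23 and 8.35 in 344SQ, 8.28, 9.05, 9.84 and 9.02 in 393LN, and 9.30, 9.18, 9.42 and 9.18 in 393P. It fell by 1.14 in 344SQ against 393P (adjusted p = 0.0123), with no overlap, and leaving out any single array kept the call. Against 393LN it fell by 0.92 (adjusted p = 0.0351), and leaving out any one of 6 arrays ended that call (-1.18 to -0.66). Reck itself had 0.24 in 344SQ against 393P (95% interval -0.04 to 0.53) and 0.17 against 393LN (-0.11 to 0.45), neither past the test.

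Endothelial markers, given here since Adgra2 is known from vessels, had mean levels of 8.97 to 9.47 in 344SQ, 9.08 to 9.59 in 393LN and 9.02 to 9.55 in 393P over 8 genes. None of the 8 passed in 344SQ against 393P, 344SQ against 393LN or 393LN against 393P, where 10.5%, 10.9% and 2.45% of all genes passed. Fzd5 and Fzd8 rose by 0.63 and 0.66 in 344SQ against 393LN (adjusted p = 0.025 and 0.0228). Leaving out any one of 5 arrays ended the call of Fzd5 and any one of 3 that of Fzd8. Lrp5 and Lrp6, the co-receptors of the β-catenin branch, had -0.10 and -0.26 in 344SQ against 393P, and neither passed.

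Secreted antagonists gave 1 call among 14 measured genes of 15, in 344SQ against 393P, where 10.5% of all genes passed. Wif1, which binds Wnt proteins outside the cell, was dim, at 7.13, 6.25, 6.13 and 6.28 in 344SQ, 5.71, 5.90, 6.06 and 5.90 in 393LN, and 5.16, 5.02, 5.66 and 5.86 in 393P. It rose by 1.02 in 344SQ against 393P (adjusted p = 0.015). None of the 9 genes of the R-spondin axis, which amplifies Wnt signals, passed in any comparison by limma (1, 1 and 0 of 9 at an unadjusted p under 0.05, beside 23.6%, 25.7% and 15.7% of all genes). Of the 9 other Wnt ligand genes on the arrays, only Wnt10b passed, and only in 344SQ against 393LN (-0.77, adjusted p = 0.0295), where 10.9% of all genes passed. That call, at a low signal of 5.55 to 6.31 in 344SQ and 6.24 to 6.93 in 393LN, ended when any one of 6 arrays was left out.

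Of 19 core genes of β-catenin signalling, 3 rose and 0 fell in each comparison of 344SQ. Among all genes tested, 10.5% passed against 393P and 10.9% against 393LN. Ctnnb1, which encodes β-catenin, was bright on all arrays and had 0.24 in 344SQ against 393P and 0.26 against 393LN (adjusted p = 0.167 and 0.125). Tcf7l1, a TCF factor that mostly represses, was at 9.66, 9.98, 10.52 and 10.09 in 344SQ, 7.78, 7.45, 8.42 and 9.01 in 393LN, and 9.74, 8.50, 8.30 and 8.24 in 393P. It rose by 1.90 in 344SQ against 393LN (adjusted p = 0.00791), with no overlap.

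Against 393P, Tcf7l1 rose by 1.37 (adjusted p = 0.0376), but 393P replicate 1 lay within the 344SQ range and leaving out any one of 6 arrays ended the call (1.22 to 1.72). Apc, part of the complex that destroys β-catenin, rose by 0.51 against 393P and 0.60 against 393LN (adjusted p = 0.0108 and 0.00497). The co-repressor gene Tle3 rose by 0.53 against 393P (adjusted p = 0.014), and the kinase gene Csnk1a1 by 0.57 against 393LN (adjusted p = 0.0189), which no longer passed when replicate 2 of 344SQ or of 393LN was left out (adjusted p of at most 0.058). With the mean of all probe sets of a gene, Tcf7l1 against 393P, Apc against 393LN, Tle3 and Csnk1a1 did not pass, and with a pseudocount of 1 in place of 16 Tcf7l1 against 393P did not pass.

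Targets of β-catenin passed the test only in the comparisons of 344SQ. Of 19 measured genes of 21, 1 rose and 0 fell in 344SQ against 393P, where 10.5% of all genes tested passed. Against 393LN 1 rose and 2 fell, where 10.9% of all genes passed. None passed in 393LN against 393P (3 at an unadjusted p under 0.05, beside 15.7% of all genes). Axin2, the most widely used readout of β-catenin signalling, was at 7.94, 8.03, 7.55 and 7.60 in 344SQ, 7.55, 7.60, 7.87 and 8.27 in 393LN, and 7.65, 8.14, 7.78 and 7.48 in 393P. The lines were mixed, and the change in 344SQ was 0.02 against 393P (95% interval -0.39 to 0.43) and -0.04 against 393LN (-0.46 to 0.37), signs that changed with the settings.

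Lgr5, a target that is also an R-spondin receptor, had -0.71 in 344SQ against 393P (95% interval -1.53 to 0.12) and -0.29 against 393LN. Bmp4, a growth factor gene listed as a target, changed most. It was at 11.26, 11.05, 10.40 and 9.32 in 344SQ, 7.48, 7.55, 8.15 and 8.80 in 393LN, and 8.70, 8.56, 8.60 and 7.71 in 393P. All 4 values of 344SQ lay above the rest, with rises of 2.11 against 393P and 2.51 against 393LN (adjusted p = 0.00711 and 0.00279). Against 393LN, Nkd2, a feedback inhibitor, fell by 0.80 and Myc by 1.27 in 344SQ (adjusted p = 0.011 and 0.0113), and leaving out any single array kept both calls. Both had their highest mean in 393LN. In 344SQ, 393LN and 393P, Nkd2 averaged 7.99, 8.80 and 8.29 and Myc 11.46, 12.73 and 11.85. Neither gene passed in 344SQ against 393P or in 393LN against 393P.

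**Figure D5:**
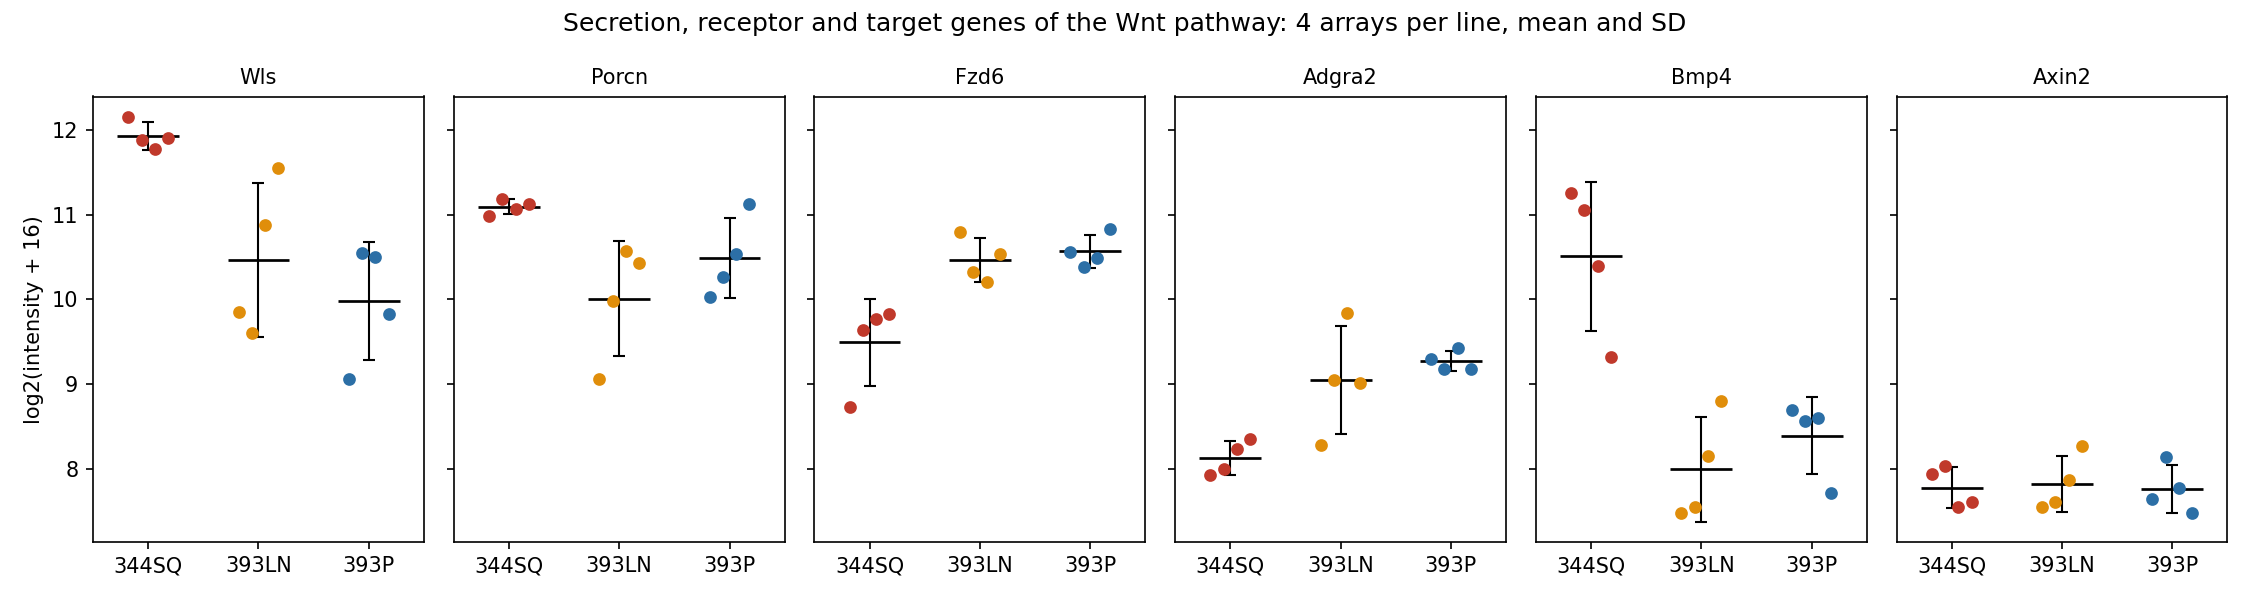
Level, as log2(intensity + 16), of 6 genes that make, receive or respond to Wnt signals; points are the 4 arrays of a line, bars the mean and SD. Wls and Bmp4 lie higher in 344SQ than in both 393 lines, Fzd6 lower, and Axin2 overlaps throughout.

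Of 14 measured polarity genes of 15, 0 rose and 2 fell in 344SQ against 393P, and 1 fell against 393LN. In these comparisons 10.5% and 10.9% of all genes passed. Celsr1, an atypical cadherin of planar polarity, was at 7.07, 7.86, 7.48 and 9.14 in 344SQ, 9.12, 9.47, 8.71 and 8.30 in 393LN, and 10.09, 9.63, 9.59 and 9.36 in 393P. It fell 3.43-fold in 344SQ against 393P (log2 change -1.78, SE 0.39, limma adjusted p = 0.0118). Its relative Celsr2 fell by 0.51 and 0.44 (adjusted p = 0.0207 and 0.0406), calls that ended when any one of 4 and of 9 arrays was left out.

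Among 6 epithelial markers, 1 passed in each comparison of 344SQ, where 10.5% and 10.9% of all genes passed. Epcam, a cell adhesion gene, was at 8.30, 10.00, 9.95 and 10.27 in 344SQ, 13.35, 13.43, 13.19 and 13.10 in 393LN, and 13.22, 13.51, 13.56 and 13.51 in 393P. It fell in 344SQ (log2 changes -3.82 against 393P and -3.64 against 393LN), while its other probe set had -0.45 and -0.18 (adjusted p = 0.0246 and 0.381, over all probe sets). Cdh1, Krt8, Krt18, Krt19 and Krt7 did not pass, and the median change of the 6 was -0.13 and -0.02. The mean of the 6 was 12.82 to 13.17 in 344SQ, 13.44 to 13.69 in 393LN and 13.49 to 13.81 in 393P, and without Epcam it was 13.61 to 13.75 in 344SQ, 13.49 to 13.76 in 393LN and 13.55 to 13.87 in 393P. The mean of 10 macrophage markers was 10.32 to 11.19 in 344SQ, 10.85 to 11.46 in 393LN and 10.97 to 11.75 in 393P. Of these markers, 2 fell in 344SQ against 393P and 1 against 393LN. At an unadjusted limma p under 0.05 they numbered 8 and 4, beside 23.6% and 25.7% of all genes. Their median change was -0.66 and -0.55. Mrc1 alone averaged higher in 344SQ, at 11.46, with 10.97 in 393LN and 10.78 in 393P. The part of cell makeup in the values of Wnt7b, Fzd6, Adgra2 and Celsr1 was not tested.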

How the data were processed

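The authors deposited 1 table of probe set intensities on a linear scale for 12 arrays, hybridised with biotin-labelled RNA isolated with an Ambion kit, per the labels' protocols. The summarising and normalizing steps are not given among the sources used here. All deposited intensity values (100%) are 2 raised to a power with 2 decimals, and the table's 45101 probe sets exceed the chip that the design text names. They were used as log2(intensity + 16), with no further normalization, and the number of arrays limits the precision. Of the probe sets, 34945 have 1 gene symbol, 932 several, 9160 none and 64 are controls; no unused value columns were present (0).

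One mean per line was fitted over all 12 arrays with limma 3.58.1 (lmFit and eBayes) in R 4.3.3, two-sided, with Benjamini-Hochberg adjustment over 18193 genes, and again over all 34945 probe sets. Folds are on the log2(intensity + 16) scale and understate changes of dim genes. All 10 ligand genes are named; for each pathway list up to 4 called members with the smallest p, and Axin2, Lgr5, Porcn, Wls and Ctnnb1 by choice. Reck, Lrp5, Lrp6 and members of the marker lists were named for their roles, after their values were seen. Likeness is Pearson's r among genes outside the lowest 40% of highest line means. The ligand genes, lists and tests were chosen with earlier results of these data known. Tcf7, Ephb2, Prickle3 and Kremen2 were not analysed here. The scripts were tested on simulated data. Alternatives were other scalings, pseudocounts, filters, probe set rules, array sets, limma options and single arrays left out. Promoter sequences and positions are from RefSeq (GRCm38.p6).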

Additional observations from a re-analysis of the deposited data

Results flagged for a closer look

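Wnt9a in 344SQ replicate 4 was at 6.90 on the log2(intensity + 16) scale, while the other 344SQ arrays lay between 7.31 and 7.35. The gap filled 0.920 of the range of the 4 values, above Dixon's 95% critical value for a group of 4. Of 60 groups of 4 values examined, 1 stood out in this way, and chance gives about 1 in 20.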

How the results depend on the processing

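The falls of Wnt7b in 344SQ, by its brighter probe set, passed under every alternative tried, with log2 changes of -1.84 to -1.58 against 393P and -1.24 to -0.99 against 393LN when single arrays were left out. Those of Wnt7a passed under all but the mean of all probe sets (log2 changes -0.25 in 344SQ and -0.40 in 393LN against 393P), which left 1 ligand gene called in 344SQ against 393P and 0 in 393LN against 393P (2 at an unadjusted p under 0.05 in the fit as reported). Array weights called 2 in 393LN against 393P. Reversed signs were all of changes that did not pass. In 393LN against 393P these were Wnt9a 0.026, Wnt10a 0.14 and Wnt11 -0.030 with array weights, Wnt11 -0.046 with quantile normalization, Wnt6 -0.0041 with pseudocount 64, Ctnnb1 0.0058 with quantile normalization, 0.0027 with median centring and 0.24 with the mean of probe sets, and Axin2 -0.13 with that mean; in 344SQ against 393P, Axin2 gave -0.21 with that mean and -0.018 with array weights. With single arrays left out, sign changes occurred in 393LN against 393P for Wnt5b (-0.060 to 0.20), Wnt6 (-0.16 to 0.14), Wnt9a (-0.29 to 0.12), Wnt10a (-0.19 to 0.14), Wnt11 (-0.079 to 0.11), Axin2 (-0.087 to 0.19) and Ctnnb1 (-0.067 to 0.033). In 344SQ against 393P they occurred for Wnt2 (-0.26 to 0.078) and Axin2 (-0.077 to 0.15), and in 344SQ against 393LN for Wnt7a (-0.10 to 0.28), Axin2 (-0.13 to 0.11) and Lgr5 (-0.41 to 0.036). The cause was not tested. Over all genes, 1907 passed in 344SQ against 393P (3320 with array weights, 1259 to 1932 with single arrays left out). In 344SQ against 393LN 1984 passed (1167 to 2481). In 393LN against 393P 446 passed (883 with array weights, 174 with only the 8 arrays of the lines compared, 156 to 438 with single arrays left out). With only those 8 arrays, Wls, Porcn, Adgra2 and Fzd5 against 393LN and Vps26a and Celsr2 against 393P no longer passed in 344SQ. With a pseudocount of 1, Wls and Porcn against 393LN did not, and with the mean of probe sets neither Wls against 393LN nor Vps29 against 393P did. No paired analysis was possible because the replicate numbers follow accession order and pair no samples.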
